A study of Homo sapiens with 24 samples.

Results

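The 53 genes described here act in the DNA damage response and in DNA repair. They were chosen by name, as the listed checkpoint kinase, recombination, Fanconi, mismatch, end-joining and excision repair genes whose mean was 10 normalized counts or more. All 53 passed that minimum in each of 4 comparison tables, out of 15168 genes that passed it in any table. Poly(A) RNA levels had been compared between 4 aneuploid human lines and the parental line of each, with 3 libraries per group and 24 in all. HCT116 is a colorectal cancer cell line with 45 chromosomes and deficient mismatch repair. RPE1 is a retinal pigment epithelial line with 46 chromosomes, immortalized with telomerase (hTERT), which its derivatives carry as well. HCT116 5/4 has 4 copies of chromosome 5 and was compared with HCT116. HCT116* 8/3 c7, a single clone, has 3 copies of chromosome 8 and was compared with HCT116*, where the asterisk marks cells that express a histone H2B-GFP fusion, in the aneuploid line and in its control alike. RPE1 5/3 12/3 has 3 copies of chromosomes 5 and 12, the latter gained spontaneously, and was compared with RPE1. RPE1* 21/3 has 3 copies of chromosome 21 and was compared with RPE1*. Each gain is thus represented by 1 cell line per background, and the extra chromosomes, other than the spontaneous one, had been introduced into the cells.

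Breaks in DNA are recognized by ATM and stalled replication forks by ATR, 2 kinases that signal through CHEK2 and CHEK1 and halt the cell cycle. Breaks are then either joined end to end, by the Ku proteins XRCC5 and XRCC6 with PRKDC, XRCC4 and LIG4, or resected and repaired from the sister chromatid by homologous recombination, which needs BRCA1 and BRCA2. The Fanconi anemia proteins unhook crosslinks between the strands, mismatch repair corrects replication errors, and the excision pathways remove damaged bases or bulky lesions. Gains of whole chromosomes are known for replication stress and DNA damage in cultured cells, which is why the RNA levels of these genes are of interest in such lines.

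The values are the log2 fold change of an aneuploid line over its parental line and its standard error (SE), as the deposited tables hold them for each comparison. No value of a single library enters the text, and the spread between libraries is carried only by the SE. Nothing in the labels says that the 3 libraries of a group came from separate cultures, so that the p-values measure only the spread between these libraries, which may be technical. A gene was called when its adjusted p, from the DESeq2 Wald test with Benjamini-Hochberg adjustment over a whole table, was under 0.05 and its absolute log2 fold change exceeded 0.6. The tables matched the named cell lines in part. EPCAM, an epithelial adhesion gene, had means of 4192 and 5683 normalized counts in the HCT116 and HCT116* tables and 4.77 in the RPE1 table, and was not listed in the RPE1* table. VIM, an intermediate filament gene of mesenchymal cells, had means of 175391 and 110087 in the RPE1 and RPE1* tables against 481 and 106 in the HCT116 and HCT116* tables. Of the other colon markers, CDH1 and KRT19 went with EPCAM. KRT8, however, had means of 19618 and 16721 in the RPE1 and RPE1* tables, and LGALS4 had 2.32 in the HCT116* table. CDH2, FN1 and TGFBI went with VIM. COL1A2 had means of only 4.39 and 8.78 in the RPE1 and RPE1* tables, and CAV1 had 15613 in the HCT116* table against 24437 in the RPE1 table. RPE65, the retinoid isomerase that defines retinal pigment epithelium, was near the minimum in the RPE1 and RPE1* tables, with means of 10.4 and 4.58. It had 287 and 194 in the HCT116 and HCT116* tables. PMEL went with RPE65, at 17.8 and 14.8 against 97.1 and 137 in the same tables. MITF went the other way, at 1439 and 1124 against 67.4 and 62.0. BEST1 was also higher in the RPE1 and RPE1* tables, at 42.7 and 41.3, than in the HCT116 and HCT116* tables. RLBP1 was listed only in the RPE1 and RPE1* tables, at 32.4 and 4.77. In the RPE1 table, 1 of the 5 pigment epithelium markers tested rose and 3 fell, and in the RPE1* table none of 3 was called. The markers also moved within HCT116 5/4. There, EPCAM fell by 2.57 and CDH1 fell by 2.34 on the log2 scale, while KRT8 rose by 1.25, with 1 colon marker higher and 2 lower of 4 tested. VIM rose by 2.74 and FN1 by 0.90, while CAV1 fell by 2.42, with 2 mesenchymal markers higher and 1 lower of 4 tested. Of 3 pigment epithelium markers tested in this line, RPE65 rose by 2.26, while MITF fell by 3.20 and PMEL fell by 1.53. The part of these shifts in the repair gene results of HCT116 5/4 was not tested. In bulk RNA, a change in the share of cells of a given state and a change in RNA per cell cannot be told apart.

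Of the 53 repair genes, 8 were called in HCT116 5/4, 6 of them higher and 2 lower. That is 15.1% of the members, against 20.6% of the 13887 genes tested in this line, of which 10.8% were higher and 9.83% lower. In HCT116* 8/3 c7, 1 member was called, lower, which is 1.89% against 1.8% of all 13869 genes, where 0.945% were higher and 0.858% lower. In RPE1 5/3 12/3, 5 members were called, 3 higher and 2 lower, which is 9.43% against 16.6% of all 13278 genes, where 8.13% were higher and 8.47% lower. No member was called in RPE1* 21/3, where 3.31% of all 13101 genes were, 1.66% higher and 1.65% lower. The members' share was below that of all genes in 3 lines and close to it in HCT116* 8/3 c7. No member of RPE1* 21/3 had an unadjusted p under 0.05 either, against 9.59% of all genes, and the lowest adjusted p of any member was 0.739.

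The 14 calls fell on 12 members. CHEK1 and MSH3 were each called in 2 lines, and 41 members were called in none. The median log2 fold change of the 53 members was 0.12 in HCT116 5/4, 0.08 in HCT116* 8/3 c7, 0.02 in RPE1 5/3 12/3 and 0.01 in RPE1* 21/3, and the median of all genes lay between -0.0004 and 0.006 in the 4 tables. In HCT116* 8/3 c7, 41 of the 53 members were above 0, where 51.8% of all genes were. The members' median absolute change was 0.26 in HCT116 5/4 and 0.17 in RPE1 5/3 12/3, against 0.29 and 0.21 over all genes whose mean reached 100, and 0.09 in RPE1* 21/3 against 0.13. The order was the other way in HCT116* 8/3 c7, with 0.11 for the members and 0.09 for such genes.

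**Figure D1:**
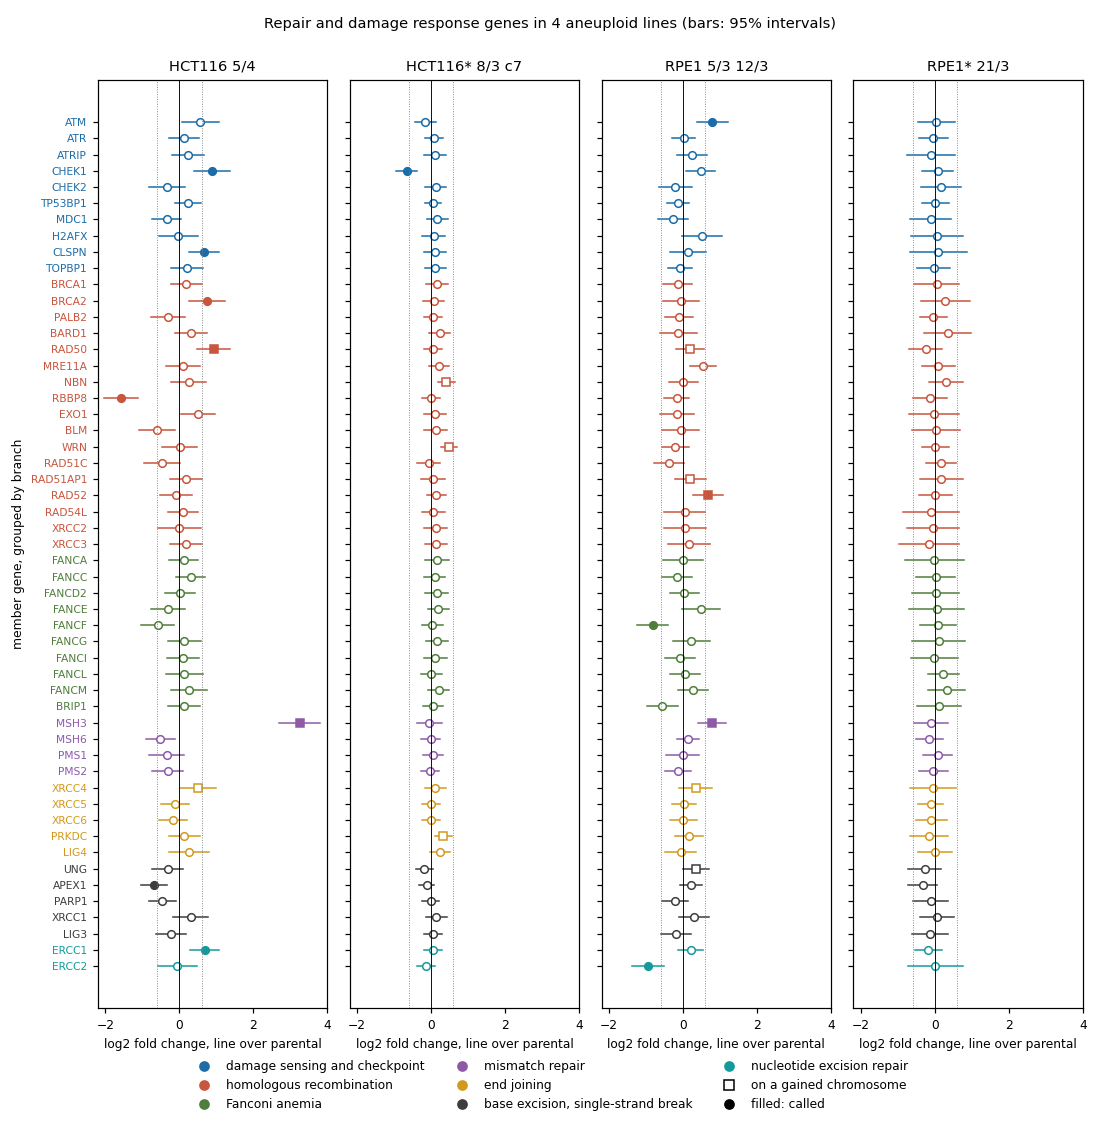
Log2 fold change of the 53 members (rows, coloured by branch) in each aneuploid line over its parental line, with bars for 95% intervals, dotted lines at -0.6 and 0.6, squares for members on a gained chromosome and filled symbols for called members. MSH3 in HCT116 5/4, at 3.25, lies far to the right of all other points, and no symbol is filled in RPE1* 21/3.

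Among the 10 damage sensing and checkpoint genes, CHEK1, the effector kinase of ATR, was called in opposite directions in the HCT116 derived lines. It rose by 0.88 (SE 0.25, adjusted p = 0.00355) in HCT116 5/4 and fell by 0.66 (SE 0.14, adjusted p = 0.000155) in HCT116* 8/3 c7, where it was at percentile 0.678 of all genes. Its log2 fold change was 0.48 (SE 0.20, adjusted p = 0.0706) in RPE1 5/3 12/3 and 0.08 (SE 0.21) in RPE1* 21/3. CHEK1 was thus raised in HCT116 5/4 and lowered in HCT116* 8/3 c7, each relative to its own parental line, and did not pass in either RPE1 line. CLSPN encodes claspin, the adaptor through which ATR activates CHEK1. It rose by 0.67 (SE 0.20, adjusted p = 0.00801) in HCT116 5/4 and had values of 0.10, 0.13 and 0.09 in the other lines. ATM, the kinase that responds to double-strand breaks, rose by 0.80 (SE 0.21, adjusted p = 0.00171) in RPE1 5/3 12/3. Its value was 0.57 (SE 0.26, adjusted p = 0.108) in HCT116 5/4, -0.16 in HCT116* 8/3 c7 and 0.03 in RPE1* 21/3. CHEK2, the effector kinase of ATM, passed in no line and ran from -0.33 (SE 0.25) in HCT116 5/4 to 0.17 (SE 0.27) in RPE1* 21/3, the highest value of the branch there. MDC1, which binds phosphorylated H2AX at breaks, had the lowest value of the branch in HCT116 5/4, at -0.34 (SE 0.20), in RPE1 5/3 12/3, at -0.27 (SE 0.21), and in RPE1* 21/3, at -0.12 (SE 0.28), and the highest in HCT116* 8/3 c7, at 0.17 (SE 0.15). The branch median was 0.22 in HCT116 5/4 and between 0.02 and 0.09 in the other lines.

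The 17 homologous recombination genes held the member with the largest fall. RBBP8 encodes CtIP, which starts the resection of broken ends. It fell by 1.58 (SE 0.23, adjusted p = 2.14e-10) in HCT116 5/4, to 0.33 of the parental level, and its value was -0.02 in HCT116* 8/3 c7, -0.17 in RPE1 5/3 12/3 and -0.14 in RPE1* 21/3. RBBP8 was below 0 in every line but passed only in HCT116 5/4. EXO1, a nuclease that extends the resected tract, was at 0.51 (SE 0.23, adjusted p = 0.105) in that line. BRCA2, which loads the recombinase onto single-stranded DNA, rose by 0.74 (SE 0.25, adjusted p = 0.0169) in HCT116 5/4. BRCA1 was at 0.19 (SE 0.22), PALB2, which bridges BRCA1 and BRCA2, at -0.31 (SE 0.23), and BARD1, the partner of BRCA1, at 0.31 (SE 0.23) there, none of them past the threshold. BARD1 had the highest value of the branch in RPE1* 21/3, at 0.35 (SE 0.33), with a 95% interval from -0.29 to 0.99. RAD51C, which acts in recombinase paralog complexes, had the lowest value of the branch in HCT116* 8/3 c7, at -0.07 (SE 0.16), and in RPE1 5/3 12/3, at -0.38 (SE 0.21). RAD52, a strand annealing protein, rose by 0.68 (SE 0.21, adjusted p = 0.00912) in RPE1 5/3 12/3, which gained its chromosome, and was between -0.08 and 0.14 elsewhere.

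The sensor complex of double-strand breaks, made of RAD50, MRE11A and NBN, showed how unevenly subunits of a complex could be placed. RAD50 lies on chromosome 5, MRE11A on chromosome 11 and NBN on chromosome 8. In HCT116 5/4, RAD50 rose by 0.93 (SE 0.22, adjusted p = 0.000344), while MRE11A was at 0.11 (SE 0.23) and NBN at 0.25 (SE 0.24). In HCT116* 8/3 c7, NBN was the highest of the 3, at 0.41 (SE 0.12, adjusted p = 0.0161), past the threshold on p but under that on the fold change, with MRE11A at 0.20 and RAD50 at 0.05. In RPE1 5/3 12/3, MRE11A was at 0.53 (SE 0.18, adjusted p = 0.0189), likewise past the threshold on p alone, RAD50 at 0.19 (SE 0.19) and NBN at 0.01 (SE 0.20). A different subunit was highest in each of these 3 lines. In RPE1* 21/3, RAD50 had the lowest value of the branch, at -0.25 (SE 0.22). Differences between members within a line were not tested.

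FANCF was the only one of the 10 Fanconi anemia genes to be called in any line. It encodes an adaptor of the core complex that ubiquitinates FANCD2 and FANCI. It fell by 0.82 (SE 0.22, adjusted p = 0.00163) in RPE1 5/3 12/3. In HCT116 5/4 it was also the lowest of the branch, at -0.58 (SE 0.23, adjusted p = 0.0484), which passed the threshold on p and fell short of that on the fold change, and it was at 0.04 and 0.09 in HCT116* 8/3 c7 and RPE1* 21/3. FANCD2 and FANCI themselves stayed between -0.09 and 0.15 in the 4 lines. BRIP1, a helicase that binds BRCA1, was at -0.56 (SE 0.22, adjusted p = 0.0539) in RPE1 5/3 12/3. The highest values of the branch were those of FANCC in HCT116 5/4, at 0.31 (SE 0.20), FANCE in RPE1 5/3 12/3, at 0.49 (SE 0.26), and FANCM, a translocase that recruits the core complex, in HCT116* 8/3 c7, at 0.20 (SE 0.15), and in RPE1* 21/3, at 0.32 (SE 0.25). The lowest in HCT116* 8/3 c7 was FANCL, the ubiquitin ligase, at 0.01 (SE 0.15), and in RPE1* 21/3 FANCA, at -0.02 (SE 0.41). All 10 genes of this branch were above 0 in HCT116* 8/3 c7, with a median of 0.13, and none of them had an unadjusted p under 0.05 there.

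In mismatch repair, MSH3 had the largest change of any member. MSH3 forms one of the mismatch recognition dimers, which binds small insertion and deletion loops. It rose by 3.25 (SE 0.29, adjusted p = 2.36e-27) in HCT116 5/4, a 9.50-fold increase at percentile 99.2 of all genes. Its mean of 471 normalized counts and this fold change correspond to 89.8 in HCT116 and 853 in HCT116 5/4, provided that the mean weighs both groups alike. The mean was 76.1 in the HCT116* table, where the log2 fold change was -0.06 (SE 0.17) and MSH3 had the lowest level per kilobase of all members, at 17.1 normalized counts per kilobase of the MANE transcript. MSH3 thus had a low level in the parental HCT116 lines. In RPE1 5/3 12/3 it rose by 0.78 (SE 0.19, adjusted p = 0.000418) around a mean of 943, and in RPE1* 21/3 it was at -0.09 (SE 0.23) around a mean of 522. MSH6, which forms the other recognition dimer, was at -0.51 (SE 0.20, adjusted p = 0.0572) in HCT116 5/4, the lowest of the branch, and at 0.13 (SE 0.15) in RPE1 5/3 12/3. It was also the lowest in RPE1* 21/3, at -0.15 (SE 0.19). PMS2, a subunit of the nuclease that acts after recognition, was at -0.32 (SE 0.21) in HCT116 5/4, and its -0.14 (SE 0.19) was the lowest value of the branch in RPE1 5/3 12/3. PMS1 had the highest value in HCT116* 8/3 c7, at 0.05 (SE 0.13), and in RPE1* 21/3, at 0.07 (SE 0.20), and was at -0.35 (SE 0.25) in HCT116 5/4. The other 3 genes of the branch were all below 0 in HCT116 5/4.

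The regulatory sequences that bear on the levels of many replication and repair genes include sites for the E2F transcription factors. The RefSeq windows of GRCh38.p14, each 300 bases long from 250 before to 50 after a transcript start, were searched on both strands for TTTCGCGC or TTTGGCGC, 2 forms of the site. Windows matched 48 of the 53 members by symbol, 70 windows in all. The motif was found in 5 windows of 5 members (7.14%), and in 1.15% of the 35116 windows of all genes. MSH3 was the only called member with a match. The 5 matches are shown 5′ to 3′ on the strand of the gene with up to 11 bases on either side, and with the motif or its reverse complement in capitals, to let the site of MSH3 be read beside the others. They lie at chr5:80654534-80654563 (plus strand) for MSH3, chr1:241848197-241848226 (plus) for EXO1, chr3:133661930-133661959 (minus) for TOPBP1, chr9:95317863-95317892 (minus) for FANCC and chr22:41621326-41621344 (plus) for XRCC6, where the window ends with the motif. In MSH3 both forms match, on opposite strands and overlapping, so that 2 matches share the site, and the capitals mark the first of them.
MSH3: gcgcggtcaagTTTGGCGCgaaattgtggc
EXO1: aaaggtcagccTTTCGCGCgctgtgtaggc
TOPBP1: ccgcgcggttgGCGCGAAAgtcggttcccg
FANCC: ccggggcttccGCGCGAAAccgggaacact
XRCC6: gtcgcttccctGCGCCAAA
The capitals begin 107 bases before the annotated start in MSH3, 172 before it in FANCC and 7 before it in TOPBP1, where they run across the start. In EXO1 they begin at base 5 and in XRCC6 at base 43 of the transcript. In HCT116 5/4 the log2 fold changes of these genes were 3.25 for MSH3, 0.51 for EXO1, 0.21 for TOPBP1, 0.31 for FANCC and -0.17 for XRCC6. A match is a description of the letters and not of binding, and the windows of CHEK1, CLSPN and BRCA2, which rose in HCT116 5/4, did not hold these letters.

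The end-joining genes were not called in any line. XRCC4, which holds LIG4 at the broken ends, lies on chromosome 5 and had the highest value of the branch in HCT116 5/4, at 0.51 (SE 0.24, adjusted p = 0.136), and in RPE1 5/3 12/3, at 0.34 (SE 0.22, adjusted p = 0.348). Its partner LIG4 was at 0.26 (SE 0.28) and -0.06 (SE 0.21) in the same lines, the latter the lowest of the branch. PRKDC, the kinase of the pathway, lies on chromosome 8 and was at 0.33 (SE 0.12, adjusted p = 0.134) in HCT116* 8/3 c7, the highest of the branch there. Its value in RPE1* 21/3, -0.15 (SE 0.26), was the lowest. The Ku subunits XRCC5 and XRCC6 were the most abundant members per kilobase in the RPE1 5/3 12/3 table, at 3080 and 4845 normalized counts per kilobase, and their log2 fold changes stayed between -0.17 and 0.02 in the 4 lines. XRCC6 was the lowest of the branch in HCT116 5/4 (SE 0.20), and XRCC5 in HCT116* 8/3 c7, at -0.01 (SE 0.12). LIG4 had the highest value in RPE1* 21/3, at 0.00 (SE 0.23).

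Base excision and single-strand break repair had its lowest value in HCT116 5/4 at APEX1, which nicks DNA at sites that have lost their base. APEX1 fell by 0.67 (SE 0.18, adjusted p = 0.00162) in that line. It was at -0.12 (SE 0.11) in HCT116* 8/3 c7, 0.22 (SE 0.15) in RPE1 5/3 12/3 and -0.33 (SE 0.20) in RPE1* 21/3, the lowest of the branch there. PARP1, the sensor of single-strand breaks, was at -0.46 (SE 0.19, adjusted p = 0.0627) in HCT116 5/4 and -0.22 (SE 0.18) in RPE1 5/3 12/3, the lowest of the branch in the latter. UNG, which removes uracil, was at -0.18 (SE 0.12) in HCT116* 8/3 c7, the lowest of the branch, and at 0.35 (SE 0.18, adjusted p = 0.167) in RPE1 5/3 12/3, the highest, where its chromosome 12 is gained. XRCC1, the scaffold of the pathway, was highest in HCT116 5/4, at 0.30 (SE 0.25), in HCT116* 8/3 c7, at 0.14 (SE 0.14), and in RPE1* 21/3, at 0.06 (SE 0.24). Of the 5 genes, 4 were below 0 in HCT116 5/4, with a median of -0.32.

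The 2 nucleotide excision repair genes, ERCC1, a subunit of the nuclease that cuts on the 5′ side of a lesion, and ERCC2, a helicase of the transcription factor TFIIH, changed in different lines. ERCC1 rose by 0.69 (SE 0.20, adjusted p = 0.00469) in HCT116 5/4 and was at 0.05 (SE 0.12), 0.21 (SE 0.17) and -0.18 (SE 0.19) in HCT116* 8/3 c7, in RPE1 5/3 12/3 and in RPE1* 21/3. ERCC2 fell by 0.95 (SE 0.22, adjusted p = 0.00027) in RPE1 5/3 12/3 and was at -0.05 (SE 0.27), -0.15 (SE 0.12) and 0.01 (SE 0.38) in HCT116 5/4, in HCT116* 8/3 c7 and in RPE1* 21/3. Both genes lie on chromosome 19 near each other and overlap genes of the opposite strand. ERCC1 shares 47.1% of its exon bases with CD3EAP, which was at -0.46 (SE 0.26) in HCT116 5/4. ERCC2 shares 13.0% with KLC3, which fell by 1.26 (SE 0.31, adjusted p = 0.000664) in RPE1 5/3 12/3. The counting options in the study's methods name no strand setting, and none for reads that overlap exons of 2 genes. At the featureCounts defaults, strand is ignored and such reads are left uncounted. How far this moved the values of ERCC1 and ERCC2 was not tested, and they are uncertain to that degree.

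**Figure D2:**
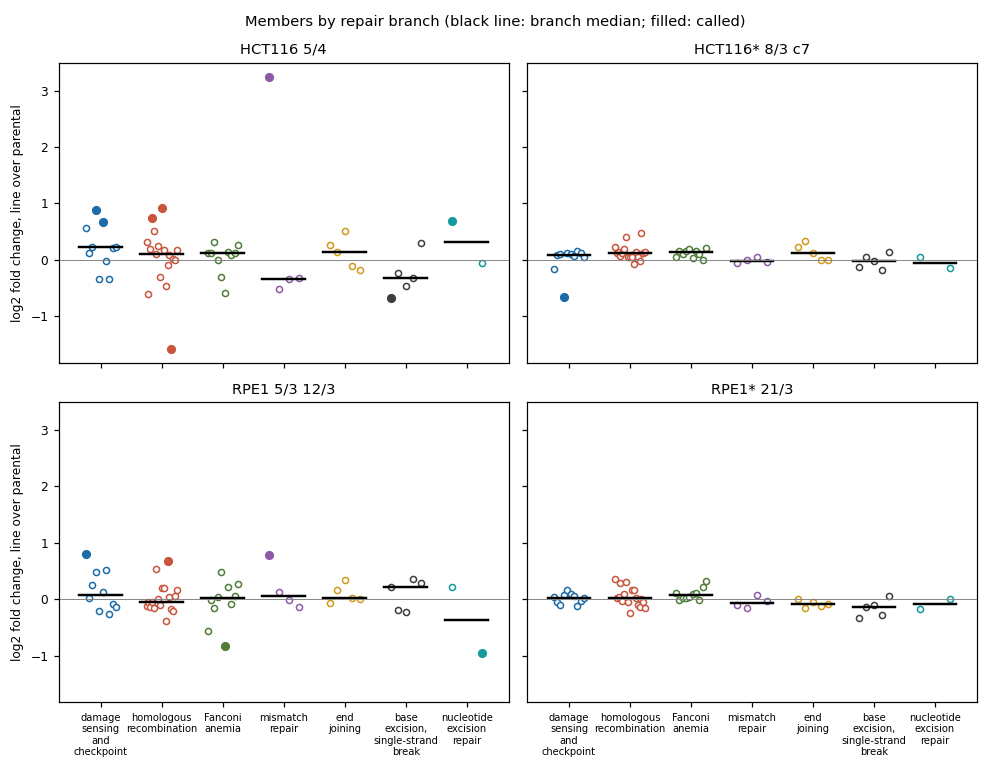
Log2 fold change of each member by branch (x axis) in the 4 lines, with a black line at the branch median and filled points for called members. Branch medians ran from -0.37 for nucleotide excision repair in RPE1 5/3 12/3, which has 2 genes, to 0.32 for the same branch in HCT116 5/4, and lay between -0.13 and 0.13 in HCT116* 8/3 c7 and RPE1* 21/3.

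By branch, the calls in HCT116 5/4, where 20.6% of all genes were called, fell on 2 of 10 checkpoint genes, 3 of 17 recombination genes, 1 of 4 mismatch repair genes, 1 of 5 base excision genes and 1 of 2 nucleotide excision genes, and on no Fanconi anemia or end-joining gene. In RPE1 5/3 12/3, where 16.6% of all genes were called, they fell on 1 gene each of 5 branches, and on none of end joining or base excision repair. The median log2 fold change was above 0 in checkpoint and Fanconi anemia genes in all 4 lines, and in recombination and end-joining genes in 3. It was below 0 in mismatch, base excision and nucleotide excision repair in 3 lines each. Some of these medians were close to 0, such as 0.02 for checkpoint genes in RPE1* 21/3 and for Fanconi anemia genes in RPE1 5/3 12/3. No test of a branch was made.

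Members on gained chromosomes were compared with the genes around them. The median log2 fold change of all genes was 0.78 on chromosome 5 in HCT116 5/4, 0.22 on chromosome 8 in HCT116* 8/3 c7, and 0.53 and 0.43 on chromosomes 5 and 12 in RPE1 5/3 12/3. The log2 ratio of copies to the parental 2 was 1 for 4 copies and 0.585 for 3. A change of just the latter size lies under the threshold of 0.6 and could not be called. No member lies on chromosome 21. In all, 12 values of members came from a gained chromosome, all 12 of them above 0, and 4 were called. Calls were made for 58.8% of all genes on chromosome 5 in HCT116 5/4, where 2 of the 3 members were called. On chromosomes 5 and 12 in RPE1 5/3 12/3, 41.2% and 30.3% of genes were called, and 1 of 3 members on each. On chromosome 8 in HCT116* 8/3 c7, 15.2% of genes and no member of 3 were called. The other 10 of the 14 calls came from members on other chromosomes. Of the 12 values, 5 lay above the median of all genes within 5 Mb on either side.

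MSH3 was 2.31 above its window in HCT116 5/4, whose median was 0.94, and 0.30 above it in RPE1 5/3 12/3. RAD50 differed by -0.15 from its window in HCT116 5/4, whose median was 1.07, and by -0.31 in RPE1 5/3 12/3. XRCC4 also lay below its window in both lines, with differences of -0.44 and -0.21. RAD52 was 0.38 above its window in RPE1 5/3 12/3, while UNG and RAD51AP1, a cofactor of the recombinase that was at 0.19 (SE 0.21, adjusted p = 0.668), differed by -0.13 and -0.23 from theirs. In HCT116* 8/3 c7, WRN, a RecQ helicase, was at 0.48 (SE 0.12, adjusted p = 0.00202), 0.07 above its window and short of the threshold on the fold change. It was the highest of the recombination branch there. NBN was 0.19 above its window, and PRKDC differed by -0.19 from one that held only 6 genes.

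Chromosome 11 is not listed as gained in RPE1 5/3 12/3, yet its genes had a median of 0.27 over 713 genes in that line, against 0.01 or less in the other lines. Of the 5 members on this chromosome, the 4 on its long arm had windows with medians from 0.42 to 0.53, namely ATM, CHEK1, MRE11A and H2AFX. H2AFX, the histone variant that is phosphorylated around breaks, was at 0.51 (SE 0.28, adjusted p = 0.215). The values of these 4 members, from 0.48 to 0.80, were thus of the size of their neighbours' median or up to 0.33 above it. FANCF, on the short arm, fell in a window with a median of -0.14. The part of the raised chromosome arm in the call of ATM was not tested. Across the 53 members, the rank correlation between a member's log2 fold change and the median of its window was 0.35 in HCT116 5/4, 0.32 in HCT116* 8/3 c7, 0.42 in RPE1 5/3 12/3 and 0.04 in RPE1* 21/3. It is given as a description, since members of 1 region share a window and all members of a line share its libraries.

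**Figure D3:**
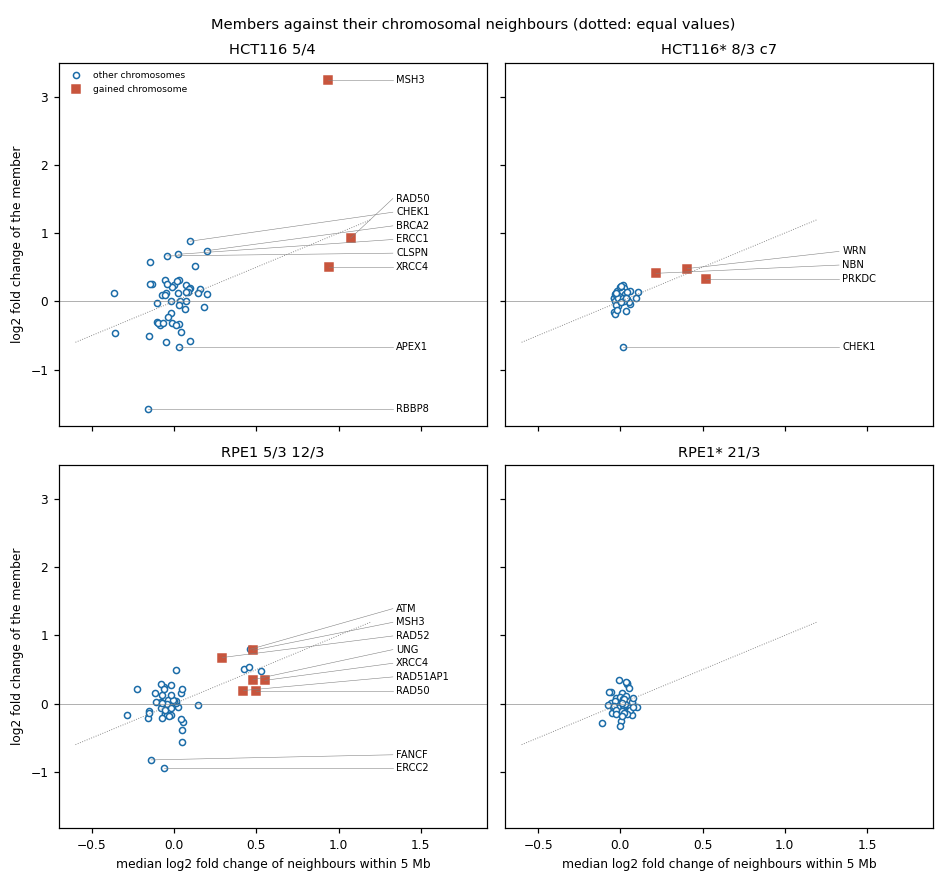
Log2 fold change of each member (y axis) against the median of all genes within 5 Mb on either side of it (x axis) in the 4 lines, with red squares for members on a gained chromosome, the names of these and of the called members at the right, and a dotted line where both values are equal. MSH3 in HCT116 5/4, RBBP8 in HCT116 5/4 and CHEK1 in HCT116* 8/3 c7 lie far from the line, and 4 open circles of RPE1 5/3 12/3 sit among the red squares.

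Repair genes often share a start region with a neighbour. A divergent gene began within 1000 bases of 15 of the 53 members (28.3%), and of 12.5% of the 14458 placed genes above the same minimum. Neighbours had values both like and unlike the member's, and those named here were chosen after their values were seen. NPAT, 429 bases from ATM, was at 0.55 (SE 0.19, adjusted p = 0.0232) in RPE1 5/3 12/3. TMEM167A, 153 bases from XRCC4, rose by 0.88 (SE 0.25, adjusted p = 0.00425) in HCT116 5/4, where XRCC4 was at 0.51. MCM4, 805 bases from PRKDC, was at 0.55 (SE 0.15, adjusted p = 0.0123) in HCT116* 8/3 c7. These 3 pairs lie on raised chromosomes or arms, so that the shared start and the shared region cannot be told apart. OSGEP, 414 bases from APEX1, was at -0.44 (SE 0.24, adjusted p = 0.198) in HCT116 5/4, where APEX1 fell. In that line C12orf4, beside RAD51AP1, rose by 0.71 (SE 0.25, adjusted p = 0.0218) and PPPDE2, beside XRCC6, fell by 0.61 (SE 0.20, adjusted p = 0.0148). RAD51AP1 and XRCC6 were not called there but had the same signs, at 0.18 and -0.17. Differences between neighbours and members were not tested. Exon bases were shared with another listed gene by 12 members. Besides ERCC1 and ERCC2, these included LIG3 (44.8% shared with RFFL), TP53BP1 (29.6% with TUBGCP4) and FANCL (27.3% with VRK2). The limit given for ERCC1 and ERCC2 holds for them as well.

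The 84 other repair genes of the same branches were counted beside the members. In HCT116 5/4, where 20.6% of all genes were called, 4 were called higher and 4 lower. MPG, a glycosylase that removes alkylated bases, fell by 2.78 (SE 0.30, adjusted p = 3.37e-19), the largest change in this list. RAD1, a subunit of the checkpoint clamp on chromosome 5, rose by 1.12 (SE 0.25), and MLH3 and C17orf70, a Fanconi core complex gene, fell by 0.99 (SE 0.26) and 0.81 (SE 0.30). RECQL rose by 0.78 (SE 0.22), and UIMC1, also on chromosome 5 like RAD1, by 0.77 (SE 0.20). Both genes called in HCT116* 8/3 c7, where 1.8% of all genes were called, were higher and on chromosome 8. They were NEIL2, a base excision glycosylase, at 0.76 (SE 0.11), and POLB, the polymerase of base excision repair, at 0.63 (SE 0.13). In RPE1 5/3 12/3, where 16.6% of all genes were called, 4 were higher and 4 lower. APLF and NEIL1 fell by 1.17 (SE 0.34) and 0.81 (SE 0.29), ERCC6 fell by 0.68 (SE 0.21), and CDC25C, FAM175A and ERCC8 rose by 0.75 (SE 0.23), 0.73 (SE 0.22) and 0.66 (SE 0.21). CDC25C and ERCC8 lie on chromosome 5. None of the 84 was called in RPE1* 21/3, where 3.31% of all genes were. The median of the 84 lay between -0.04 and 0.04 in the 4 lines.

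Genes of S and M phase, with which many repair genes are expressed, and genes that respond to damage were set beside the members. Of 18 S and M phase genes, 2 were called higher in HCT116 5/4, none in HCT116* 8/3 c7, 1 higher in RPE1 5/3 12/3 and none in RPE1* 21/3, and their medians were 0.14, 0.07, 0.05 and 0.07. Of all genes, 10.8%, 0.945%, 8.13% and 1.66% were called higher in these lines. The members' medians had been 0.12, 0.08, 0.02 and 0.01. The 2 called in HCT116 5/4 were E2F1, at 0.89 (SE 0.26, adjusted p = 0.00389), and CDC6, at 0.69 (SE 0.23, adjusted p = 0.0153). MKI67, a marker of cycling cells, was at 0.55 (SE 0.23, adjusted p = 0.0767) in HCT116 5/4. The part of the cell cycle in the calls of CHEK1, CLSPN and BRCA2 in this line was not tested. Of 10 damage response output genes, 9 were below 0 in HCT116 5/4, with a median of -0.35. In this line 2 of them were called lower, where 9.83% of all genes were. All 10 were above 0 in RPE1* 21/3, with a median of 0.37, where 50.7% of all genes were above 0. CDKN1A, the cyclin kinase inhibitor, was called there, at 0.73 (SE 0.20, adjusted p = 0.0133), and 1.66% of all genes were called higher. No repair member was called in that line. In RPE1 5/3 12/3, 9 of the 10 were above 0, with a median of 0.24. Only 1, DDB2, was called higher, where 8.13% of all genes were. DDB2 and XPC are also among the 84 other repair genes and were counted in both lists.

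The changes of the lines were next compared with each other, as the difference between 2 log2 fold changes over its combined SE, with adjustment over all genes of each of 6 pairs. The 4 comparisons share no libraries. The study's list of cell lines gives the same laboratory as the origin of HCT116 and HCT116 5/4, and another source for the cells behind HCT116*. Between the HCT116 derived lines, the gained chromosome, the parental stock and the H2B-GFP fusion can thus not be told apart. There were 20 differences, in 10 members. HCT116 5/4 and HCT116* 8/3 c7 differed in 6 members (11.3%, against 18.9% of all 13570 genes). CHEK1 was higher by 1.55 (95% interval 0.98 to 2.11, adjusted p = 1.62e-06) in HCT116 5/4, MSH3 by 3.30 (2.65 to 3.96), RAD50 by 0.88 (0.38 to 1.37) and ERCC1 by 0.64 (0.18 to 1.10). RBBP8 was lower, by a difference of -1.56 (-2.08 to -1.05), and so was APEX1, by -0.55 (-0.96 to -0.14). The calls of APEX1 and ERCC1 were lost with adjustment over the 6 pairs together (adjusted p = 0.0611 and 0.0522) and with a prior on fold changes undone (0.0631 and 0.0546). HCT116 5/4 and RPE1 5/3 12/3, which both gained chromosome 5, differed in 3 members (5.66%, against 18.5% of all genes). These were MSH3, with a difference of 2.46 (1.79 to 3.14), RBBP8, with -1.41 (-1.97 to -0.84), and APEX1, with -0.89 (-1.35 to -0.42). The rise of MSH3 was thus larger in HCT116 5/4 beyond the error of both. HCT116 5/4 and RPE1* 21/3 differed in 4 members (7.55%, against 10.5%), namely MSH3, RAD50 and ERCC1, by 3.34, 1.18 and 0.87, and RBBP8, by -1.44.

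HCT116* 8/3 c7 and RPE1 5/3 12/3 differed in 6 members (11.3%, against 14.9% of all genes). CHEK1, ATM and MSH3 were lower in HCT116* 8/3 c7, with differences of -1.15 (-1.62 to -0.67), -0.95 (-1.46 to -0.45) and -0.84 (-1.34 to -0.34), the last of which was not called with the prior undone (adjusted p = 0.0506). FANCF, ERCC2 and WRN were higher, by 0.86 (0.34 to 1.38), 0.80 (0.30 to 1.30) and 0.69 (0.25 to 1.12). No member differed between HCT116* 8/3 c7 and RPE1* 21/3, where 2.57% of all genes did and 2 members had an unadjusted p under 0.05. Of the RPE1 derived lines, 5/3 12/3 and 21/3 differed in MSH3 (1.89%, against 9.32%), by 0.88 (0.29 to 1.47, adjusted p = 0.0404), a call that was lost with the prior on fold changes undone (adjusted p = 0.0511). FANCF was below 0 in HCT116 5/4 and in RPE1 5/3 12/3, and the fall in these lines was not shown to differ. Over all 53 members, 39 had the same sign in HCT116 5/4 and HCT116* 8/3 c7 (73.6%, against 49.1% of all genes). In the other pairs between 24 and 33 did (45.3% to 62.3%, against 47.8% to 55.2% of all genes). CLSPN, FANCD2, FANCG, FANCL, FANCM, MRE11A, NBN, RAD51AP1 and XRCC1 were above 0 in all 4 lines, and PARP1, PMS2 and RBBP8 below it. The share of all genes with 1 sign in every line was not counted. Some of these values were close to 0, such as FANCL at 0.01 in HCT116* 8/3 c7 and NBN at 0.01 in RPE1 5/3 12/3.

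A missing call was not shown to be a missing change. The 95% interval lay within -0.6 and 0.6 for 17 of the 53 members in HCT116 5/4, 50 in HCT116* 8/3 c7, 28 in RPE1 5/3 12/3 and 23 in RPE1* 21/3, and within -1 and 1 for all 53 in both GFP lines. The SEs had a ceiling at 0.18 shared by 250 genes in HCT116* 8/3 c7, and at 0.56 shared by 150 in RPE1* 21/3, the mark of a prior that shrinks fold changes, and CHEK1 was at -0.81 in HCT116* 8/3 c7 with it undone. Undoing it left 43 members within -0.6 and 0.6 and 52 within -1 and 1 in HCT116* 8/3 c7, and 20 and 48 in RPE1* 21/3, an alternative chosen after seeing the data. SEs of members were compared with those of the 200 genes closest in mean. In RPE1* 21/3 the Fanconi anemia genes had a median percentile of 90.0 and the recombination genes 78.5, and in HCT116* 8/3 c7 the recombination and checkpoint genes had 90.5 and 90.0. The SE of FANCA in RPE1* 21/3 was 0.41, where genes of like mean had a median of 0.23. The Fanconi anemia and recombination genes had 70.8 and 63 in RPE1 5/3 12/3, without GFP, and in HCT116 5/4 they had 44.3 and 54. Base excision genes were at 56 and 64 in HCT116* 8/3 c7 and RPE1* 21/3, at 50.5 in RPE1 5/3 12/3 and at 11 in HCT116 5/4. The values used here do not say which libraries differed.

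**Figure D4:**
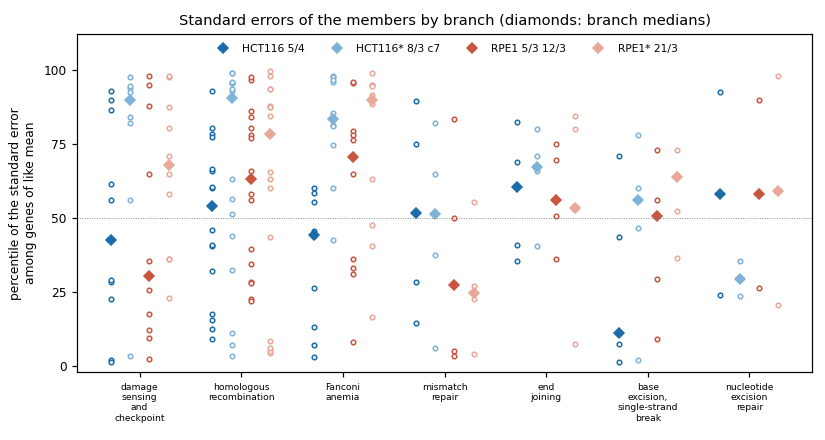
Percentile of each member's SE among the 200 genes closest in mean (y axis) by branch (x axis), with a circle per member and line and a diamond at the median of the branch in each line. Fanconi anemia and recombination diamonds of the GFP lines lie between 78.5 and 90.5, above the dotted line at 50.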

How the data were processed

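RNA of 8 groups with 3 libraries each was sequenced with single reads of 100 bp, per the labels. Per the submitters' processing notes and the study's methods, the authors trimmed reads with cutadapt, mapped them to hg19 with TopHat2 2.0.10, counted them with featureCounts 1.4.3 and fitted DESeq2 (version not given in the sources used here). The 4 deposited tables hold only results of these fits. The mean of normalized counts (a signal over both groups), the log2 fold change with its SE, the Wald score and the p-values are the authors' deposited values. They were used because the members are defined on them, and no count test was run. The Wald score equalled the ratio of the log2 values, and the adjusted p-values the Benjamini-Hochberg adjustment over each table, within 3.26e-06. The depth of single libraries is unknown from these tables.

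Python 3.11.15 with scipy 1.17.1 computed the calls, the tests of differences between lines (two-sided, normal) and the windows. The difference test was run on simulated data whose noise was drawn from the same SEs. That checks the computation and not whether the SEs are right. Genes were placed by GENCODE annotation lifted to GRCh37 (94.3% of 16742 symbols, all 53 members, 2 by an older symbol). Standard errors had a ceiling shared by at least 50 genes in HCT116* 8/3 c7 and RPE1* 21/3, which a normal prior on fold changes leaves, and from which it was undone as an alternative. Values were given for members that were called, lay on a gained chromosome, differed between lines or were extreme in a branch, and for the largest called changes, up to 6 per line, among other repair genes. MRE11A, EXO1, BRIP1, H2AFX, BRCA1, PALB2, partners in complexes, E2F1 and CDC6 were added after their values were seen. The members and lists were chosen with earlier results of these data known.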

Additional observations from a re-analysis of the deposited data

Results flagged for a closer look

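The change of a member over the parental line differed between 2 lines in 20 cases, each by the test of the difference itself with adjustment over all genes of the pair. Of these, 13 involve HCT116 5/4. Between HCT116 5/4 and HCT116* 8/3 c7 the differences in log2 fold change were 1.55 for CHEK1, 0.88 for RAD50, -1.56 for RBBP8, 3.30 for MSH3, -0.55 for APEX1 and 0.64 for ERCC1. Between HCT116 5/4 and RPE1 5/3 12/3 they were -1.41 for RBBP8, 2.46 for MSH3 and -0.89 for APEX1, and between HCT116 5/4 and RPE1* 21/3 they were 1.18 for RAD50, -1.44 for RBBP8, 3.34 for MSH3 and 0.87 for ERCC1. Between HCT116* 8/3 c7 and RPE1 5/3 12/3 they were -0.95 for ATM, -1.15 for CHEK1, 0.69 for WRN, 0.86 for FANCF, -0.84 for MSH3 and 0.80 for ERCC2. MSH3 also differed between RPE1 5/3 12/3 and the RPE1* 21/3 line, by 0.88. MSH3 and RAD50 lie on a chromosome gained in 2 of the lines, WRN on the one gained in HCT116* 8/3 c7, and ATM, CHEK1, RBBP8, APEX1, ERCC1, ERCC2 and FANCF on none. ATM and CHEK1 lie on the long arm of chromosome 11, whose genes were raised in RPE1 5/3 12/3. The part of that arm in their differences was not tested. The differences of APEX1 and ERCC1 between HCT116 5/4 and HCT116* 8/3 c7, and those of MSH3 from HCT116* 8/3 c7 to RPE1 5/3 12/3 and between the RPE1 derived lines, lost their call with the prior undone, and the first 2 also with adjustment over the 6 pairs together.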

How the results depend on the processing

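The members called in HCT116 5/4 numbered 2 with an absolute log2 fold change above 1 in place of 0.6, and the counts for HCT116* 8/3 c7 and RPE1 5/3 12/3 were then 0 and 0. In HCT116* 8/3 c7, 3 members were called with no fold change threshold and 3 above 0.3, which adds NBN and WRN. With p-values adjusted over the 6 pairs together, 1 member differed between HCT116* 8/3 c7 and RPE1* 21/3 and 2 between RPE1 5/3 12/3 and the RPE1* 21/3 line. With the prior undone, 0 differed between the latter. The other 54 counts under these alternatives, which also included no minimum mean, a minimum of 100, adjusted p under 0.1 or 0.01, adjustment over tested genes and centred fold changes, stayed within 1.5 times, and no direction of a called member was reversed. All 14 calls held under each alternative but the fold threshold of 1 and, for BRCA2 in HCT116 5/4, an adjusted p under 0.01. Of the differences, those of APEX1 and ERCC1 between HCT116 5/4 and HCT116* 8/3 c7 had adjusted p of 0.0611 and 0.0522 over the 6 pairs and 0.0631 and 0.0546 with the prior undone, and that of MSH3 between HCT116* 8/3 c7 and RPE1 5/3 12/3 had 0.0506 with it undone. No paired analysis was possible because the values used here are those of comparisons and not of libraries. For the same reason, leaving out each replicate and a count test were not run, and whether 1 library decides a call is not known.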
